A study of Mus musculus with 72 samples.

Results

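Transcripts of 8 neuropeptides (Avp, Vip, Grp, Nms, Prok2, Sst, Cck and Penk) and 2 neuropeptide receptors (Vipr2 and Prokr2) were followed in the suprachiasmatic nucleus (SCN) of mice on 2 diets across the circadian day. The members were taken by gene symbol, and all 10 were found among the 15759 genes of the SCN count table. All 10 passed the filter on low counts.

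The SCN, a paired nucleus of the hypothalamus, is the pacemaker that sets circadian time for the mammalian body. Its neurons release GABA together with peptides, and the peptides carry time within the nucleus and out of it. Vasoactive intestinal peptide (Vip) and gastrin-releasing peptide (Grp) are made in the retina-recipient core, arginine vasopressin (Avp) in the shell, and neuromedin S (Nms) in many cells of both. Vip acts through the receptor Vipr2, which raises cAMP and keeps SCN neurons synchronised, while prokineticin 2 (Prok2) acts through Prokr2 and is known as an output signal of the nucleus. Somatostatin (Sst), cholecystokinin (Cck) and proenkephalin (Penk) are made by other SCN neurons and by cells around the nucleus.

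All groups were C57BL/6J mice, given in the protocol as 8 to 12 weeks old, fed for 11 days either a diet deficient in methionine and choline (MCD) or a control diet of equal calories. Methionine and choline are sources of methyl groups, and the diet is used to produce fatty liver disease. Lights followed a cycle of 12 h light and 12 h dark for 10 days, and the mice were killed on day 11, in constant darkness, at circadian time (CT) 0, 4, 8, 12, 16 or 20. The SCN was cut by laser microdissection from 23 stained sections of 25 µm, and stranded libraries were made from polyadenylated RNA. The 36 SCN libraries formed 12 groups of diet and time, each with 2 males and 1 female. The protocol text speaks of male mice while the sample labels name 12 female SCN libraries; the sample labels were followed. The female of a group also carries the replicate number 3, so sex and that number cannot be told apart. Nothing in the labels says which libraries share a litter or a dissection day, and p-values measure the spread between these libraries.

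Total gene counts ran from 23.4 M to 79.8 M (megareads, M) per library, with a median of 57.0 M. They averaged 52.7 ± 16.8 M on control and 54.4 ± 13.8 M on MCD (SD, n = 18 each). The 10 members took 0.207% to 0.388% of all counts in a library. Markers of SCN neurons, 8 of 8 measured, summed to between 1383 and 2580 CPM, read counts normalised to the library's scaled total. Hypothalamic markers from outside the SCN summed to 69.2 to 266 CPM, with Crh, Hcrt, Pmch, Agrp and Kiss1 not among the genes of the table. Astrocyte markers summed to 2637 to 3720 CPM and those of oligodendrocytes to 1279 to 2580 CPM, so the dissected tissue held glia. In such tissue, fewer cells of a type and less RNA per cell cannot be told apart.

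Avp and Penk share sequence with a neighbour, written here as the share of 50-base stretches of their transcripts that recur in other genes of GENCODE M21 (build GRCm38). Avp (chr2:130580620-130582554, minus strand) shares 14.8% of its stretches with Oxt, the oxytocin gene that lies 3566 bases away. Oxt itself ranged from 27.3 to 220 CPM (median 86.0 CPM) and Avp from 142 to 1373 CPM. Penk (chr4:4133531-4138819, minus strand) shares 8.6% with A830012C17Rik on the other strand. Grp, Prok2 (chr6:99711299-99726392, minus strand) and Vipr2 (chr12:116077726-116146261, plus strand) also overlap a gene on the other strand, and whether the authors counted by strand is not given in the sources used here. The antisense gene of Vipr2, Gm20658, ranged from 0 to 4.15 CPM, where Vipr2 ranged from 157 to 375 CPM.

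Avp, Prok2 and Cck, 3 members with a called rhythm, hold an E-box (CACGTG), the letters that the CLOCK and BMAL1 proteins bind, in the 250 bases before the gene start. These windows are shown because the results turn on how these genes move over the day. They are RefSeq sequence of build GRCm38.p6, written 5′ to 3′ on the strand of the gene and ending at the base before the start that RefSeq gives, with the E-box, and for Avp also the related CACGTT, in capitals. The Avp window is chr2:130582589-130582838, that of Prok2 chr6:99726393-99726642 and that of Cck chr9:121495695-121495944.
Avp: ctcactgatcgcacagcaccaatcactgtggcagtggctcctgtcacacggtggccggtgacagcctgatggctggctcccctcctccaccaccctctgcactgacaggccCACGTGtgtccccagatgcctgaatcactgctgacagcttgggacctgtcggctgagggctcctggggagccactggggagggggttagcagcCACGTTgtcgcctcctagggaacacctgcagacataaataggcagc
Prok2: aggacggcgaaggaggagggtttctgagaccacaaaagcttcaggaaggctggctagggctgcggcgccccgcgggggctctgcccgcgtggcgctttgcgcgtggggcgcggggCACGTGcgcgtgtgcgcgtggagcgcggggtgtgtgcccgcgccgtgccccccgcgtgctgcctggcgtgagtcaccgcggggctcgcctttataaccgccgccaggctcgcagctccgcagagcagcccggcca
Cck: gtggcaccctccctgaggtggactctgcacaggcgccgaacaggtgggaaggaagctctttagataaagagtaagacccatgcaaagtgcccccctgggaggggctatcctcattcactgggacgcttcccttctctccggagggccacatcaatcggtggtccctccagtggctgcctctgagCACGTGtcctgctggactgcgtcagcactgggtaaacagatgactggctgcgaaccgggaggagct
The E-box begins 139 bases before the start of Avp, 135 before Prok2 and 66 before Cck. Promoter windows of 300 bases (250 before and 50 after the start) were given for 8 of the 10 members, and 3 of these 8 held CACGTG. Of 32851 such windows of the genome, 7.15% held CACGTG on either strand, and 4.68% held CACGTT. Sst held a full cAMP response element, TGACGTCA, that begins 48 bases before its start, as do 1.79% of the windows, and Vip and Cck held its first part, TGACG (Cck on the other strand), without the full element. TGACG was found in 20.8% of the windows, a share that includes those with the full element. None of the windows of Nms, Vipr2 or Prokr2 held any of the motifs searched, which also included TTATGNAA, TAGGTCA and TGGGTCA. A match describes the letters alone and shows no binding.

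Per kilobase of exon, Avp was the member with the highest mean level on control, at 988 ± 556 CPM per kb (SD, n = 18). Vip followed at 297 ± 54.1 and Sst at 185 ± 58.5 CPM per kb. Next came Nms (91.9 ± 19.8), Penk (91.5 ± 19.0) and Cck (82.3 ± 23.5), whose steps from one to the next were within the larger SD, as was the step from Vipr2 (58.0 ± 14.9) to Grp (47.9 ± 8.09). Prokr2 lay at 27.6 ± 5.79 and Prok2 at 11.9 ± 15.5 CPM per kb. Each SD includes the gene's course over the day, described next. On MCD the order was the same except that Penk stood before Nms, 94.8 ± 27.5 against 92.4 ± 26.1 CPM per kb, and the steps from Avp to Vip, from Cck to Vipr2 and from Prokr2 to Prok2 were within the larger SD too.

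The first comparison asked which members vary over the circadian day on each diet. Rhythm was tested in edgeR's quasi-likelihood model by fitting a wave of 24 h to the means of the 6 times (a cosine and a sine term), with Benjamini-Hochberg adjustment over all 15759 genes. On control, 7 of 10 members were called (Avp, Vip, Nms, Prok2, Cck, Vipr2 and Prokr2), where 15.1% of all genes were. On MCD, 6 of 10 were called, the same genes without Vip, against 16.1% of all genes, and these 6 were called on both diets, against 9.87% of all genes. Grp, Sst and Penk were called on neither diet. Where the highest and lowest of the 6 times are set side by side below, those times were picked by their values, so any gap between them is a description. The median of the fitted peak-to-trough range was 0.71 log2 over the members and 0.30 log2 over all genes on control, and 0.68 and 0.31 log2 on MCD.

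**Figure D1:**
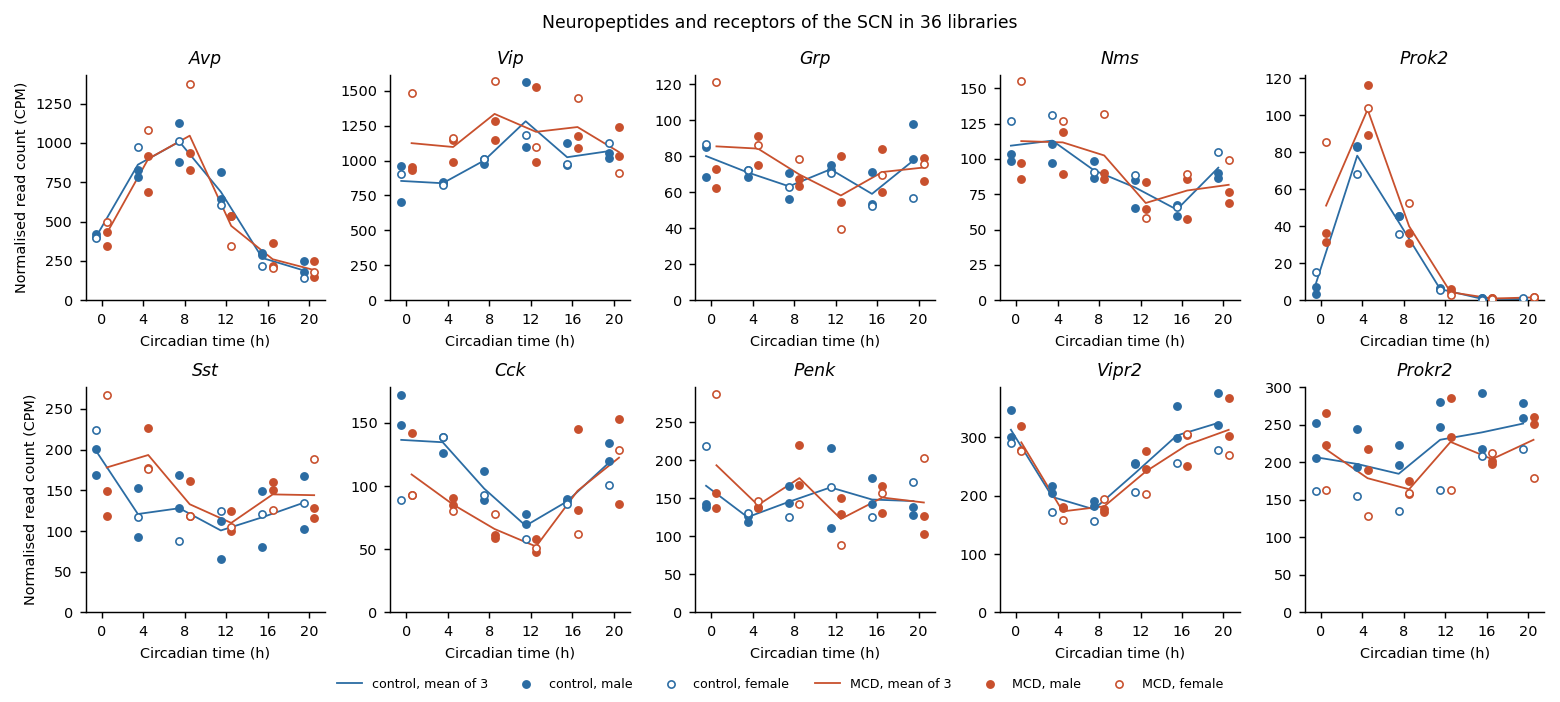
Normalised read count (CPM, vertical axis from 0) of each member against circadian time (h) in the 36 SCN libraries; filled points are males, open points females, and lines join the means of 3 libraries per diet and time. Prok2 is near 0 at CT16 and CT20 and reaches 83.4 CPM on control and 116 CPM on MCD at CT4, while Vipr2 and Prokr2 are highest at CT20 by their group means on control.

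Prok2, the output peptide, had the widest swing of the members. On control its 3 libraries read 68.1, 83.2 and 83.4 CPM at CT4, then 35.8 to 45.7 CPM at CT8, 5.27 to 6.84 CPM at CT12, 0.0724 to 1.31 CPM at CT16 and 0 to 1.31 CPM at CT20. On MCD they read 89.3, 104 and 116 CPM at CT4 and 1.10 to 1.91 CPM at CT20. No library of CT16 or CT20 came near a library of CT4 on either diet. The ratio of the highest to the lowest time mean was 125 on control and 113 on MCD. The fitted range was 7.38 log2 on control (edgeR adjusted p = 1.49e-09) and 7.30 log2 on MCD (adjusted p = 1.69e-09). On control the libraries held 3 to 97 reads of Prok2 at CT16 and 0 to 35 at CT20, against 1830 to 5798 at CT4. Without the control library that held no Prok2 read at CT20, the fitted range was 7.06 log2.

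Avp, the shell peptide, was highest at CT8 on both diets. On control it read 880, 1015 and 1129 CPM at CT8 and 142, 177 and 248 CPM at CT20. On MCD it read 826, 938 and 1373 CPM at CT8 and 146, 178 and 251 CPM at CT20. The ranges of these times did not overlap, and the means differed 5.33-fold on control and 5.46-fold on MCD. The fitted range was 2.49 log2 on control (edgeR adjusted p = 8.31e-09) and 2.47 log2 on MCD (adjusted p = 1.00e-08).

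Nms and Cck were high near the turn from night to day. Nms fell from 97.4, 111 and 131 CPM at CT4 to 59.3, 65.7 and 67.4 CPM at CT16 on control, with a fitted peak at 2.56 h and a range of 0.73 log2 (edgeR adjusted p = 9.54e-04). On MCD its range was 0.71 log2 (adjusted p = 0.00138). Cck read 89.1, 148 and 172 CPM at CT0 and 58.1, 70.1 and 77.8 CPM at CT12 on control, a range of 0.97 log2 (adjusted p = 0.00174), and 1.12 log2 on MCD (adjusted p = 3.17e-04). In both genes the highest and lowest times did not overlap on either diet. Without all libraries numbered 2 the calls of Cck were lost on control (adjusted p = 0.0920) and MCD (0.0532), as was that of Nms on MCD (0.157), which was also lost without those numbered 3 (0.0536).

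Vip, the core peptide, moved little and later in the day than Avp. On control it read 825, 842 and 846 CPM at CT4 and 1098, 1182 and 1563 CPM at CT12, a fitted range of 0.51 log2 with a peak at 13.7 h (edgeR adjusted p = 0.0276). On MCD the range was 0.25 log2 and was not called (adjusted p = 0.377), with 0.12 log2 without MCD CT12 replicate 1 (adjusted p = 0.797) and 0.41 log2 without MCD CT00 replicate 3 (adjusted p = 0.0979). The difference between the diets was itself tested and did not pass (edgeR adjusted p = 1), so the rhythm of Vip is not shown to differ between them. The control call rested on several single libraries: the adjusted p was 0.0902 without control CT00 replicate 2, 0.0603 without control CT04 replicate 3, 0.110 without control CT12 replicate 1 and 0.0721 without control CT16 replicate 1. It was also lost without all libraries numbered 1 (0.43 log2, adjusted p = 0.136) or 2 (0.52 log2, 0.164) and with a replicate block in place of sex (0.51 log2, 0.0524).

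Grp, Sst and Penk showed no called rhythm. Their fitted ranges on control were 0.28, 0.69 and 0.17 log2 (edgeR adjusted p = 0.50, 0.125 and 0.855) and on MCD 0.49, 0.65 and 0.30 log2 (adjusted p = 0.133, 0.151 and 0.597). On control Sst read 169, 200 and 224 CPM at CT0 and 65.1, 112 and 125 CPM at CT12, its highest and lowest times. Sst and Penk also varied more between libraries of a group than most members, with a biological coefficient of variation of 0.25 and 0.226, where the median of all genes was 0.156. Of the members only Prok2 varied more, at 0.555. The MCD ranges depended on single libraries. Without MCD CT00 replicate 3 that of Grp was 0.25 log2 (edgeR adjusted p = 0.553), that of Sst 0.40 log2 (0.493) and that of Penk 0.12 log2 (0.915), and without MCD CT12 replicate 3 that of Penk was 0.17 log2 (0.847). Grp on MCD was called when MCD CT00 replicate 1 (adjusted p = 0.0457), MCD CT12 replicate 1 (0.0198) or all libraries numbered 1 (0.0135) were left out. Penk on control ran from 0.050 log2 without control CT16 replicate 2 to 0.27 log2 without control CT16 replicate 3, called in neither.

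Both receptors were high at night, when Avp and Prok2 were low. Vipr2 read 277, 321 and 375 CPM at CT20 and 157, 182 and 191 CPM at CT8 on control, and 269, 302 and 367 CPM at CT20 against 159, 179 and 181 CPM at CT4 on MCD. Its fitted range was 0.93 log2 on control with a peak at 19.5 h (edgeR adjusted p = 2.35e-08) and 0.89 log2 on MCD with a peak at 18.8 h (adjusted p = 4.89e-08). It also varied least of the members, with a coefficient of variation of 0.0977 between libraries of a group.

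Prokr2 had the weaker rhythm of the receptors. On control it read 218, 259 and 279 CPM at CT20 and 135, 197 and 223 CPM at CT8, and these ranges overlap. The range was 0.44 log2 on control with a peak at 17.7 h (edgeR adjusted p = 0.0262) and 0.40 log2 on MCD with a peak at 18.3 h (adjusted p = 0.0415). These calls were close to the threshold. With no sex term in the model neither was called, at a range of 0.42 log2 on control (edgeR adjusted p = 0.298) and 0.40 log2 on MCD (0.336). Without all libraries numbered 1, 2 or 3 the control call was lost (adjusted p = 0.0518, 0.110 and 0.107), and without those numbered 2 or 3 the MCD call was (0.247 and 0.0946). On control the adjusted p rose above 0.05 without control CT04 replicate 2 or 3 (0.0748 and 0.0595), control CT08 replicate b or 3 (0.0504 and 0.0708), control CT16 replicate 1 or 3 (0.0732 and 0.0685) and control CT20 replicate 3 (0.0512). On MCD it did so without MCD CT04 replicate 2 or 3 (0.0744 and 0.0971), MCD CT08 replicate 1 or 2 (0.0881 and 0.125), MCD CT12 replicate 2 (0.0507), MCD CT16 replicate 3 (0.133) and MCD CT20 replicate 1, 2 or 3 (0.0632, 0.0852 and 0.0582).

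The second comparison asked whether the diet changed the level of these genes on average over the day. No member passed edgeR's test, nor that of DESeq2 or limma, and 10 of 15759 genes did in edgeR (0.0635%; 0.0381% higher and 0.0254% lower on MCD), while 746 genes had an unadjusted p under 0.05. The median difference was 0.02 log2 over the members and 0.00 log2 over all genes. The 3 members with an unadjusted p under 0.05 were Vip, Cck and Prok2. Vip was 0.23 ± 0.068 log2 higher on MCD (SE; edgeR adjusted p = 0.406), with a control median of 994 CPM against 1144 CPM. Cck stood at -0.29 ± 0.092 log2 (adjusted p = 0.486). Prok2 was 0.65 ± 0.23 log2 higher (adjusted p = 0.718). Nms stood at 0.00087 log2, and the other 6 members between -0.10 (Prokr2) and 0.18 log2 (Sst). In 8 other settings of scaling, filter, tool or model the difference of Sst ran from 0.18 to 0.30 log2 and was called in none.

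**Figure D2:**
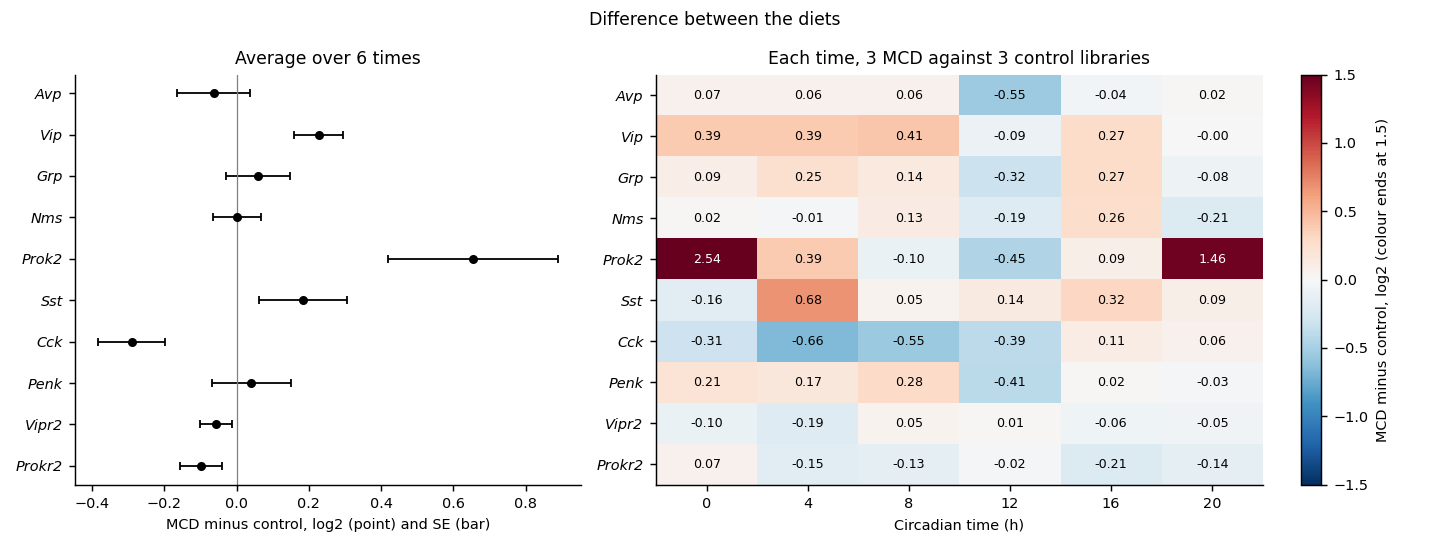
Left, MCD minus control on the log2 scale for each member, averaged over 6 times, as the edgeR estimate with its SE as a bar; right, the same difference at each circadian time, 3 libraries against 3, with colour ending at 1.5 log2. The value of 2.54 for Prok2 at CT0 is the largest of the 60 squares, and no square passed the adjusted threshold.

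At single times no member passed edgeR's, DESeq2's or limma's test either. In edgeR 1 gene passed at CT0 (0.00635%), 7 at CT4 (0.0444%), none at CT8 or CT12 (0%) and 1 each at CT16 and CT20 (0.00635%). DESeq2 called 29 genes at CT0, 21 at CT4, 5 each at CT8, CT12 and CT16 and 23 at CT20. At CT8 and CT12, 282 and 328 genes had an unadjusted p under 0.05 in edgeR. The largest of the 60 differences of a member at a time was that of Prok2 at CT0, the start of its daily rise. The control libraries read 3.59, 7.37 and 15.3 CPM and the MCD libraries 31.3, 36.6 and 85.7 CPM. The 2 ranges did not overlap, and the difference was 2.54 ± 0.53 log2 (SE; edgeR adjusted p = 0.185). In 8 other settings of scaling, filter, tool or model the estimate lay between 2.54 and 2.63 log2 (adjusted p from 0.0668 to 0.766). Without the highest library, MCD CT00 replicate 3, it was 1.95 log2 (adjusted p = 0.906), and without control CT00 replicate 3 it was 3.19 log2 (adjusted p = 0.122). It was called in none of the 36 fits without 1 library (adjusted p from 0.0634 to 0.906). At CT4, when Prok2 was near its peak, its libraries again did not overlap (68.1 to 83.4 CPM against 89.3 to 116 CPM), but the difference was 0.39 ± 0.49 log2 (edgeR adjusted p = 0.991). The model takes the spread of a gene from all groups together, also those where Prok2 is near 0. For Prok2 this spread was the widest of the members, a biological coefficient of variation of 0.555. The SE at CT0 and CT4 is therefore not the spread at those times alone.

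Unadjusted p-values under 0.05 were found at CT4 and CT8 for Cck and at CT0, CT4 and CT8 for Vip. At CT4 the control libraries read 126, 139 and 139 CPM of Cck and the MCD libraries 80.5, 85.3 and 90.4 CPM, a difference of -0.66 ± 0.23 log2 (SE; edgeR adjusted p = 0.675). At CT8 it read 89.2 to 112 CPM against 58.9 to 78.2 CPM, and at CT12 58.1 to 77.8 CPM against 47.8 to 58.0 CPM. At these 3 times every MCD library lay below every control library, at CT12 by a margin of only 58.04 against 58.05 CPM, and at CT0, CT16 and CT20 the ranges overlapped. Vip read 825 to 846 CPM on control and 988 to 1158 CPM on MCD at CT4, and 976 to 1013 CPM against 1144 to 1572 CPM at CT8. The fitted differences were 0.39 and 0.41 log2 (adjusted p = 0.847 and 1.00). At CT0 the ranges of Vip overlapped, 702 to 960 CPM on control and 935 to 1486 CPM on MCD, and the difference of 0.39 log2 (edgeR adjusted p = 1.00) was 0.15 log2 without MCD CT00 replicate 3 (adjusted p = 0.978).

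Over the 60 pairs of a member and a time, the 3 control and the 3 MCD libraries did not overlap in 11, against 8.96% of all gene and time pairs. Of these, 6 were at CT4 (Vip, Grp, Prok2, Sst and Penk higher on MCD and Cck lower), where 8.06% of all genes did not overlap. The CT4 values come from the same 6 libraries, so they are not 6 independent observations. Sst at CT4 read 92.5, 118 and 153 CPM in the control libraries, against 176, 177 and 227 CPM (0.68 ± 0.30 log2, edgeR adjusted p = 0.862). Avp at CT12 was the other peptide with an unadjusted p under 0.05, at 606 to 816 CPM on control and 347 to 536 CPM on MCD (-0.55 ± 0.25 log2, adjusted p = 0.999).

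The next comparison asked whether the diet changed the timing of the members. The test of a difference in rhythm called no member and 2 of 15759 genes (0.0127%), with 596 at an unadjusted p under 0.05, and DESeq2 called 8 genes and no member. Prok2 had the smallest p of the members (edgeR adjusted p = 0.919), followed by Cck (adjusted p = 1), both with an unadjusted p under 0.05. In a cosinor fit on log2 CPM, the peak of Prok2 lay at 5.89 ± 0.33 h on control and 4.37 ± 0.38 h on MCD, a shift of -1.51 h (95% interval -2.54 to -0.483 h). The peak of Cck moved by -2.79 h (-4.88 to -0.697 h), that of Avp by -0.69 h (-1.60 to 0.212 h) and that of Vipr2 by -0.60 h (-1.94 to 0.736 h). Nms moved by 0.36 h (-1.82 to 2.55 h) and Prokr2 by 0.70 h (-2.61 to 4.01 h). These intervals are for each gene alone and are not adjusted over the members.

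An earlier fitted peak on MCD was common among the rhythmic genes of the table. Of the 1556 genes called rhythmic on both diets, 1301 (83.6%) had an earlier fitted peak on MCD, with a median shift of -0.95 h and quartiles of -1.79 and -0.33 h. All 18 clock genes called on both diets were earlier on MCD, with shifts between -1.77 and -0.515 h and a median shift of -0.89 h. The 6 members called on both diets had a median shift of -0.66 h, 4 earlier and 2 later, with Prok2 at -1.42 h and Cck at -2.96 h in the same fit. All of these genes come from the same 36 libraries and share any deviation of a library, so their number adds no replicates. The shift as a whole was not tested.

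**Figure D3:**
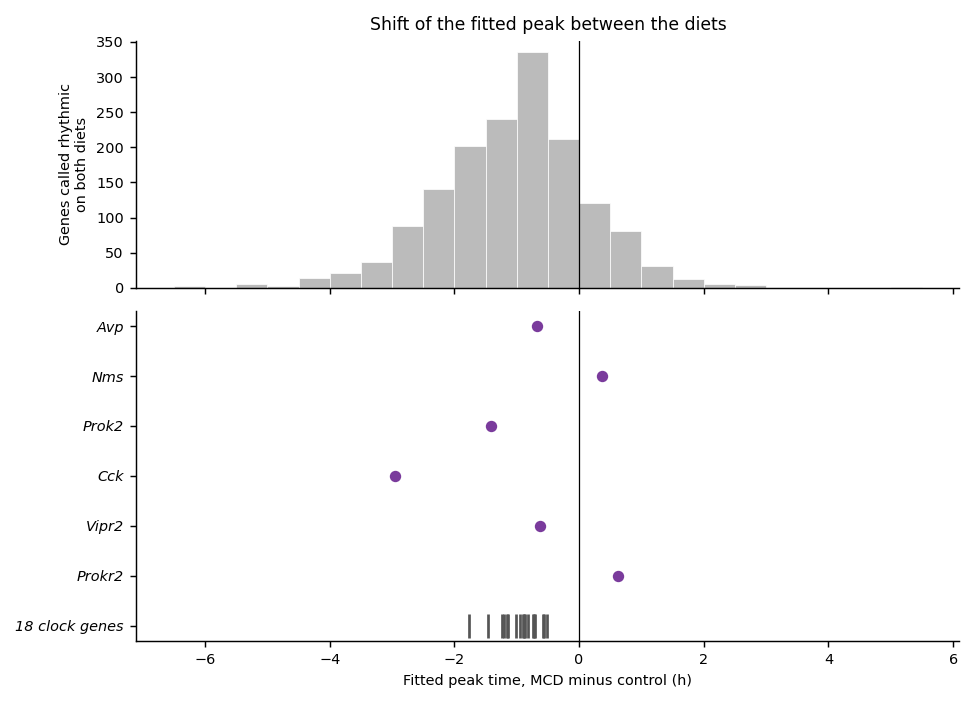
Top, histogram of the shift in fitted peak time (MCD minus control, h) over the 1556 genes called rhythmic on both diets, in bins of 0.5 h; bottom, the shift of the 6 members called on both diets (points) and of 18 clock genes (ticks). Most of the histogram and all clock genes lie left of 0, and so do Avp, Prok2, Cck and Vipr2, while Nms and Prokr2 lie right of it.

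The libraries of females and males were compared in the same model, in which sex is a term beside diet and time. Both receptors and Nms passed the test, 3 of 10 members, where 9.89% of all genes did. Of these 3, 2 were lower and 1 higher in females, where 4.98% of all genes were lower and 4.91% higher. Prokr2 was lower in females by 0.44 ± 0.063 log2 (SE, edgeR adjusted p = 1.38e-04), at 171 ± 28.8 CPM in females (SD, n = 12) and 231 ± 36.9 CPM in males (n = 24). The female had the lowest value of its group in 10 of 12 groups, all but MCD CT08 and MCD CT16. Vipr2 was lower in females by 0.19 ± 0.048 log2 (adjusted p = 0.0117) and was lowest in the female in 10 of 12 groups. Nms was higher in females by 0.28 ± 0.071 log2 (adjusted p = 0.0143), with the female highest in 9 of 12 groups.

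**Figure D4:**
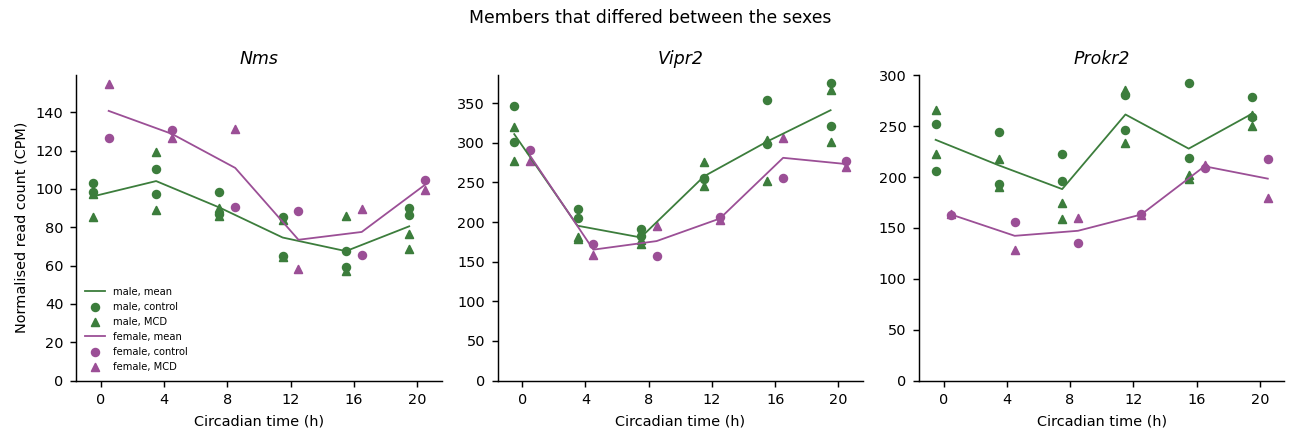
Normalised read count (CPM, from 0) of Nms, Vipr2 and Prokr2 against circadian time (h) by sex, with circles for control, triangles for MCD and lines through the means of each sex. Prokr2 shows the widest gap, with the 12 females between 129 and 218 CPM and the 24 males between 158 and 293 CPM.

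Each sex call held in all 36 fits that left out a single library, and in 6 other settings of scaling, filter or tool. Without all libraries numbered 1, Vipr2 (adjusted p = 0.247) and Nms (0.194) were no longer called, and without those numbered 2 Nms was not (0.0725). Markers of some cell types moved with sex as well, where 9.89% of all genes were called. None was called of 10 oligodendrocyte, 6 endothelium and 6 microglia markers. Of the astrocyte list, Gfap, S100b and Agt (3 of 8) were higher in females, with a summed level of 2852 to 3720 CPM (median 3102) in females and 2637 to 3249 CPM (median 2849) in males. Of the SCN neuron list, Six6, Rorb and Six3 (3 of 8) were lower in females, with a summed level of 1399 to 2355 CPM (median 1813) in females and 1383 to 2580 CPM (median 2013) in males. Of the general neuron list, Gad2 and Slc32a1 (2 of 7) were lower in females, with a summed level of 2464 to 3329 CPM (median 2753) in females and 2786 to 3612 CPM (median 3020) in males. Of the ependyma list, Ccdc153 and Rarres2 (2 of 5 measured) were higher in females, with a summed level of 128 to 297 CPM (median 200.1) in females and 105 to 283 CPM (median 158) in males. No hypothalamic marker from outside the SCN was called (0 of 5 measured), with a summed level of 84.1 to 266 CPM (median 167) in females and 69.2 to 232 CPM (median 122) in males. Of the peptide processing list, Pcsk2, Chgb, Scg2 and Ptprn (4 of 16) were lower in females. The part of these markers in the sex differences of the members was not tested.

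In the test of a diet effect that differs between the sexes, edgeR called no member and no gene (826 had an unadjusted p under 0.05; DESeq2 called 1). The member with the smallest p was Vipr2, with a difference of 0.17 ± 0.091 log2 between the sexes (edgeR adjusted p = 0.868). For the rhythm, edgeR called no gene as different between the sexes (2287 had an unadjusted p under 0.05), while DESeq2 called 109. Penk had the smallest p of the members (edgeR adjusted p = 0.117; DESeq2 adjusted p = 0.00101). Penk read 219 and 287 CPM in the females at CT0 and 137 to 157 CPM in the 4 males, and 165 and 88.1 CPM in the females at CT12 against 111 to 217 CPM in the males. Each time holds 1 female per diet, so the female course rests on 12 libraries. Without control CT12 replicate 1 or 3 the edgeR adjusted p was 2.50e-04 or 0.0303. These were the only 2 of the 36 fits without 1 library that called Penk, and the highest adjusted p was 0.207. The lowest range of these fits was 1.10 log2, without MCD CT00 replicate 3.

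One library stood out for several peptides. MCD CT00 replicate 3, from a female, held the highest level of Grp (121 CPM, next 98.2), Nms (155, next 131), Sst (267, next 227) and Penk (287, next 220), 4 of the 10 members. It also ranked 1st of 36 for the summed microglia markers (198 CPM), 2nd for hypothalamic markers from outside the SCN (246 CPM), 4th for general neuron markers (3329 CPM) and 5th for SCN neuron markers (2355 CPM). For the other lists it ranked 11th (oligodendrocyte), 12th (ependyma), 18th (endothelium) and 22nd (astrocyte). The ranks run over all times. Six6, Rorb and Rgs16 of the SCN neuron list and Tubb3, Gad1 and Gad2 of the neuron list were called rhythmic on both diets. Both sums can therefore differ between times. Without this library the average diet difference of Sst moved from 0.18 to 0.12 log2, that of Grp from 0.059 to -0.0025 log2 and that of Penk from 0.041 to -0.020 log2, none of them called.

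Members were next compared by how they deviate together between libraries of the same diet, time and sex. Of 45 pairs, 10 passed an adjusted p of 0.05 for both Pearson's r and Spearman's rho (36 libraries, two-sided permutation test, 100000 permutations, with the group and sex means removed again from each permuted set). No share over pairs of other genes is given here, so the count has no background to be read against. Vipr2 and Prokr2 had the highest r (0.67, adjusted p = 0.0081; rho 0.64, adjusted p = 0.0142; 0.61 without the 2 libraries farthest from the median). Vip went with its receptor Vipr2 (r = 0.64, adjusted p = 0.0081; rho 0.65, adjusted p = 0.0142; 0.64 without 2) and with Grp, the other core peptide (r = 0.64, adjusted p = 0.0081; rho 0.61, adjusted p = 0.0143; 0.47 without 2). Nms went with Penk (r = 0.63, adjusted p = 0.0081; rho 0.58, adjusted p = 0.0208; 0.59 without 2) and with Grp (r = 0.66, adjusted p = 0.0081; rho 0.54, adjusted p = 0.0316; 0.53 without 2). Sst and Penk formed another pair (r = 0.61, adjusted p = 0.0134; rho 0.62, adjusted p = 0.0148; 0.53 without 2). The other 4 pairs were Grp with Vipr2 and Avp with Grp, Nms and Cck, with r from 0.53 to 0.58.

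Levels of astrocyte markers moved with some of the same genes. Of 60 pairs of a member and a marker list of another cell type, 3 passed by Pearson's r (the same permutation test, adjusted over the 60). A list was taken as the mean of its genes' deviations in log2 CPM, with each gene weighted equally. Grp (r = -0.65, adjusted p = 0.0392; rho -0.63, adjusted p = 0.0468; -0.57 without 2), Nms (r = -0.61, adjusted p = 0.0392; rho -0.48, adjusted p = 0.0972; -0.45 without 2) and Vipr2 (r = -0.60, adjusted p = 0.0392; rho -0.47, adjusted p = 0.0972; -0.48 without 2) were low where this mean of the astrocyte list was high. By rho, Grp alone passed. No pair with markers of oligodendrocytes, microglia, endothelium, ependyma or the hypothalamus outside the SCN passed. All members share the library total, and the part of tissue makeup in the pairs above was not tested.

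**Figure D5:**
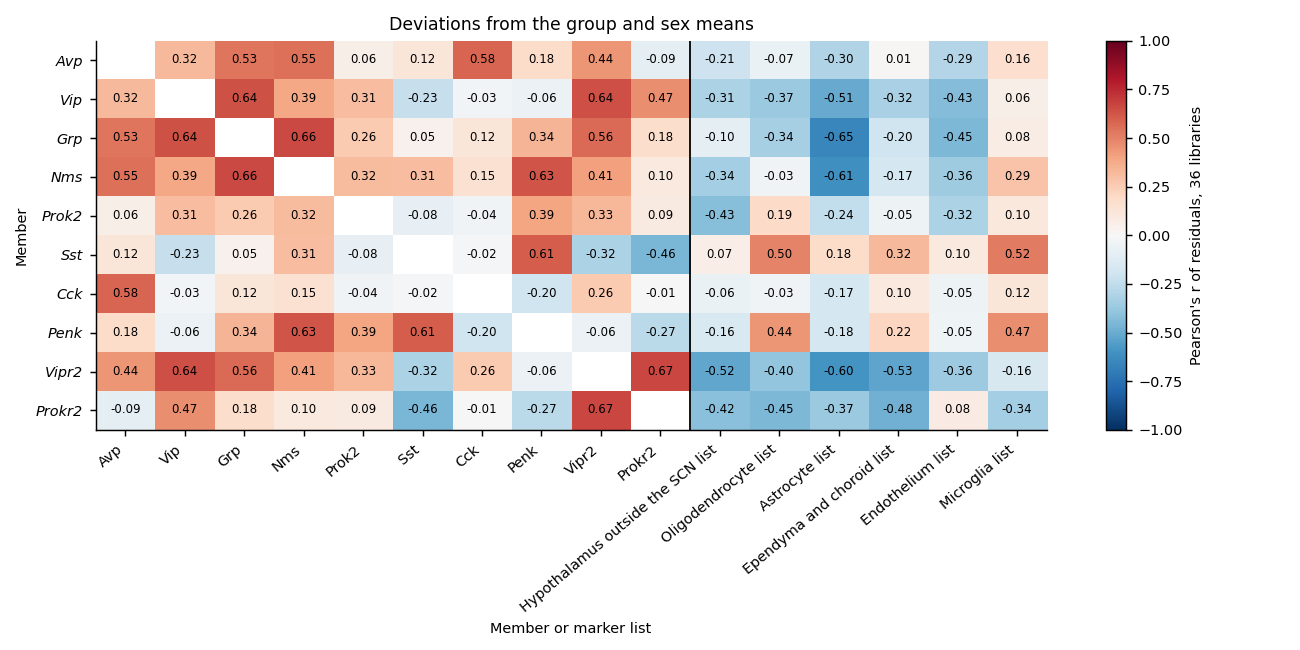
Pearson's r between the members, and between members and the mean log2 deviation of the markers of 6 other cell types, over 36 libraries after removing the means of diet, time and sex. Red is positive and blue negative. Grp, Nms, Vip and Vipr2 are red among themselves and blue with the astrocyte list, while Sst and Penk are red with the oligodendrocyte and microglia lists.

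Other genes of the peptide pathway were described by lists of genes, none of which had a member called for the average diet effect, the difference in rhythm or the diet effect by sex. Of 20 other neuropeptides measured, 5 were called rhythmic on control and 4 on MCD (Adcyap1, Nmu, Vgf and C1ql3 on both), where 15.1% and 16.1% of all genes were. Vgf, a secreted granule protein and peptide precursor, had a range of 2.27 log2 on control and peaked at 6.93 h, near Avp, and C1ql3, a secreted synaptic protein, had 2.15 log2. Nmu, encoding neuromedin U, lay between 0 and 5.25 CPM and had a fitted range of 8.64 log2 on control (edgeR adjusted p = 0.00475). This range was 6.31 log2 in limma, ran from 8.07 to 11.5 log2 with 1 control library left out, and was not called without all libraries numbered 2 (adjusted p = 0.0989). Of 9 other receptors for the members' peptides, 3 were called on both diets, against 9.87% of all genes. Avpr1a, a vasopressin receptor, ranged from 15.1 to 97.7 CPM and peaked at 18.7 h on control with a range of 2.15 log2, so it too was high at night while the transcript of its ligand was low. Sstr1, a somatostatin receptor, peaked at 15.1 h (1.42 log2; on MCD 0.90 log2, called in 15 of the 36 fits without 1 library, adjusted p 0.00957 to 0.164, and not called with RLE scaling, 0.0504, or limma, 0.0795) and Cckar, a cholecystokinin receptor, at 9.34 h (1.37 log2).

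Peptide processing and signalling genes held further rhythmic members. Of 16 processing and dense core vesicle genes, 5 were called on both diets, against 9.87% of all genes: Pcsk1, the prohormone convertase that cuts peptide precursors (1.70 log2 on control, peak at 8.65 h), Chga, a granule protein (1.06 log2, 8.59 h), Vgf, Pam and Ptprn. Of 20 genes of G protein and cAMP signalling, 10 were called on control and 8 on MCD, against 15.1% and 16.1% of all genes. Rasl11b, a small GTPase, ranged from 13.5 to 296 CPM with a fitted range of 4.30 log2 on control and a peak at 4.51 h. Rgs16, which shortens the signal of inhibitory G proteins and is strongly expressed in SCN neurons, had 2.73 log2 with a peak at 5.04 h, and Rasd1 had 2.27 log2 with a peak at 16.3 h. Among 19 clock genes, 18 were called on control and 19 on MCD. Per2 (3.4 log2, peak at 9.30 h), Dbp (2.93 log2, 5.97 h) and Ciart (2.85 log2, 5.67 h) had the widest ranges on control of those called on both diets.

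Over the 36 libraries, the course of each member was set beside that of 15721 genes of at least 1 CPM. The likest genes, by Pearson's r of log2 CPM with no covariate removed, were Vgf (0.95) and Blcap (0.95) for Avp, and 1700016P03Rik (0.94) and Per1 (0.92) for Prok2. For Vipr2 they were Syt17 (0.92) and C130074G19Rik (0.90), and for Prokr2 Tle4 (0.85) and Fbxo10 (0.85). Cck was likest to Stmn2 (0.88) and Pea15a (0.83), Nms to Macrod1 (0.80) and Klf16 (0.78), and Grp to Six6 (0.76). The values were lower for Vip, with Ccn3 (0.74) and Id4 (0.74), for Sst, with Ldhb (0.71) and Pla2g7 (0.70), and for Penk, with Atp5pb-ps (0.65) and Ppp1r17 (0.64).

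In the liver table of the same series, Penk was the member listed, at a median of 0.0824 CPM (highest 0.402 CPM) and with no count in 14 of 36 libraries.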

How the data were processed

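The authors deposited gene counts for 36 SCN libraries, whole read counts per gene with no normalisation per the file headers and values. The table already leaves out low genes (lowest total 1410 counts). The submitters' processing notes list Trimmomatic, HISAT2, StringTie, DESeq2 and GRCm39; no source used here gives their roles or settings. A pair of control CT8 male columns carries the same name, so these libraries have no replicate number and are called a and b.

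From the counts, edgeR 4.0.16 in R 4.3.3 (TMM scaling, filterByExpr with a minimum count of 10, which kept all genes, robust quasi-likelihood fit) was run over 12 groups and sex. Adjusted p-values are Benjamini-Hochberg over 15759 genes, called under 0.05. The 2-degree-of-freedom rhythm test has no SE. Cosinor fits and correlations used log2 CPM with a prior count of 2, and the correlations used residuals from group and sex means, removed again after each permutation. DESeq2 1.42.0 and limma 3.58.1 were alternatives, with other scalings, filters and left-out libraries. The fits were tested on simulated data. The members and gene lists were chosen with earlier results of these data known. From each list the 3 genes of largest range on control among those called on both diets are named, and the 2 genes likest to each member, of which 1 is not reported here. Positions and lengths come from GENCODE M21 (GRCm38) by gene ID. Exon-level counts of the series were not used here.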

Additional observations from a re-analysis of the deposited data

How the results depend on the processing

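No member was called for the diet under any setting run, and the 3 sex calls held in every scaling, filter and tool. Genes called for the average diet effect numbered 48 with DESeq2 and 6 with no sex term. DESeq2 called 29 genes at CT0, 21 at CT4, 5 each at CT8, CT12 and CT16, 23 at CT20, 8 for the rhythm difference, 1 for the diet effect by sex and 109 genes and 1 member (Penk) for the rhythm by sex. RLE scaling gave 3 genes at CT0, library totals alone gave 3 at CT4, and no sex term gave 2 at CT4 and 1 for the rhythm difference; Prokr2 then lost its rhythm calls (adjusted p = 0.298 on control and 0.336 on MCD, edgeR). The causes were not tested.

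Same-numbered libraries of control and MCD at the same time shared little deviation after the sex term was removed (r over 0.1 in 4 of 16 pairs, from -0.17 to 0.25). The main model did not pair them. Pairs across times were not compared, and which libraries share a litter or dissection day is not known. With a replicate block in place of sex (34 numbered libraries), 4 genes were called for the average diet effect, 2 at CT0, 4 at CT4, 2 at CT8, 1 for the rhythm difference and 1248 for the rhythm on control, where Vip lost its call (adjusted p = 0.0524, edgeR).

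Leaving out 1 library, or all libraries of a replicate number, gave 0 to 17 genes for the average diet effect (0 without replicate 2, 17 without control CT16 replicate 3), 0 to 4 at CT0, 0 to 8 at CT4, 0 to 1 at CT12, 1 to 2 at CT16 and 0 to 6 at CT20. It gave 20 to 2377 genes and 1 to 3 members for sex (20 and 1 without replicate 1, and 771 and 2377 without MCD CT04 or MCD CT16 replicate 3). For the rhythm it gave 811 to 2621 genes and 4 to 7 members on control and 775 to 2911 genes and 3 to 7 members on MCD, lowest without replicate 2, 1 to 5 genes for its difference between diets and 0 to 3 genes and 0 to 1 member (Penk) for the rhythm by sex.

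No value that changed sign was called. For the average diet effect Nms was -0.0019 log2 with RLE scaling and with DESeq2, -0.0025 with library totals, -0.011 with limma and -0.00066 with the 1 CPM filter. Prok2 in the diet effect by sex was -0.048 log2 with DESeq2. With 1 library or 1 replicate number left out, the average diet effect ran from -0.017 to 0.095 log2 for Grp, from -0.056 to 0.053 for Nms and from -0.020 to 0.094 for Penk. The sex effect ran from -0.097 to 0.052 for Grp and from -0.0024 to 0.16 for Sst. The diet effect by sex ran from -0.16 to 0.54 for Prok2, from -0.054 to 0.29 for Sst, from -0.091 to 0.24 for Penk and from -0.0077 to 0.15 for Prokr2. In males alone 7 cosinor values moved by more than their error: the peak of Prok2 on control to 6.41 h, and on MCD those of Avp to 6.95 h (6.47 h in all libraries), Nms to 3.85 h (2.87 h) and Prokr2 to 19.6 h (18.4 h), and the amplitudes of Avp to 1.14 log2 on control (1.25) and 1.10 log2 on MCD (1.24) and of Nms to 0.28 log2 on MCD (0.36).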
